A study of Mus musculus with 6 samples.

Results

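The transcripts of 9 collagen and fibroblast matrix genes (Col1a1, Col1a2, Col3a1, Col4a1, Col4a2, Dcn, Lum, Sparc and Pdgfra) were followed in 3 fractions of mononuclear phagocytes from the mouse mouth. Members were all probes for biological targets that carry one of these gene names on the array, which gave 21 of 56605 probes and 9 of the 37008 genes named there. After a filter on dim probes, 11 of the 21 probes were kept, and each of the 9 genes held at least 1 of them. The study compared gene expression of oral sublingual dendritic cell and macrophage subsets of BALB/c mice, an inbred strain, on 6 arrays, 2 for each fraction. All 3 fractions came from sublingual mucosa that had been painted 2 times with the hapten FITC. No unpainted group was analysed here, and the labels give neither the age of the mice nor the number pooled for a sort. Fr1 was sorted as CD11c+CD206-, Fr2 as CD11c-F4/80+CD206- and Fr3 as F4/80+CD206hi, where CD11c is encoded by Itgax, F4/80 by Adgre1 and CD206, the mannose receptor, by Mrc1. Per the series design, each replicate was a separate experiment. The cells had been released from the tongue with collagenase and DNase, and their RNA was amplified as cDNA before Cy3 labelling.

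Fibrillar collagens are triple helices built mainly by fibroblasts: type I joins the chains of Col1a1 and Col1a2, and type III is made of the Col3a1 chain alone. Type IV, built from the Col4a1 and Col4a2 chains, forms the network of basement membranes, while decorin and lumican are small proteoglycans that bind collagen fibrils. SPARC binds collagen outside the cell, and PDGFRα is a growth factor receptor used as a surface marker of fibroblasts. Macrophages and dendritic cells are better known for taking up and degrading collagen than for making it.

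A level below is the log2 processed intensity minus the array's 75th percentile, so 0 is the 75th percentile of that array. A gene is given by its brightest kept probe. Levels are compared within a probe only, since brightness differs between probes. A probe that was not well above background has only an upper bound for its level.

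Several of the 21 probes name different transcripts of the same gene, and 4 stretches of probe sequence are shown here. The Dcn and Col1a2 probes ran to the end of an open reading frame, with the stop codon in capitals, and the second of 2 Sparc probes for the RefSeq transcript was open over its whole length and spanned a gap in the genome. The frames were taken as the ones open in these letters and were not checked against an annotation. The 3 sequences show what these probes read:
Dcn, probe up to the stop codon: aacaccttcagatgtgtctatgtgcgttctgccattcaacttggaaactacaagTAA
Col1a2, probe up to the stop codon: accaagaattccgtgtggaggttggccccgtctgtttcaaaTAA
Sparc, probe for the RefSeq transcript: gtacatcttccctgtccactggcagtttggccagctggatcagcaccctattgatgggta
The brightest Sparc probe was named by another transcript. A piece of it, 30 bases long, is shown because a 16-base run in it, in capitals, also lay in 11 of the 32851 promoter windows of the RefSeq table (GRCm38.p6):
Sparc, piece of the brightest probe: gtacagaCATACATGCAGGCAAAacactta
Over all its runs of 16 bases this probe matched 20 promoter windows and probes of 5 other genes. Of all probes on the array, 1.12% held a single 16-base run that lay in at least 11 windows. Over all their runs, the other member probes matched between 0 and 3 windows. Whether such matches affect a probe's signal was not tested.

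The members' readouts were spread unevenly over the arrays. Of the 9 genes, 5 and 4 were well above background on the arrays of Fr1, 8 on each array of Fr2, and 8 and 5 on those of Fr3. Over all spots for biological targets the shares were 46.6% and 44.6% in Fr1, 51.9% and 52.4% in Fr2, and 52.0% and 46.5% in Fr3. The arrays with fewer members above background were thus those with the lower shares over all spots. Of the 21 probes, 9 were well above background on no array, and 7 of these 9 were named by transcripts outside RefSeq. Fewer cells that hold a transcript and less of it per cell cannot be told apart in such sorted bulk samples.

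**Figure D1:**
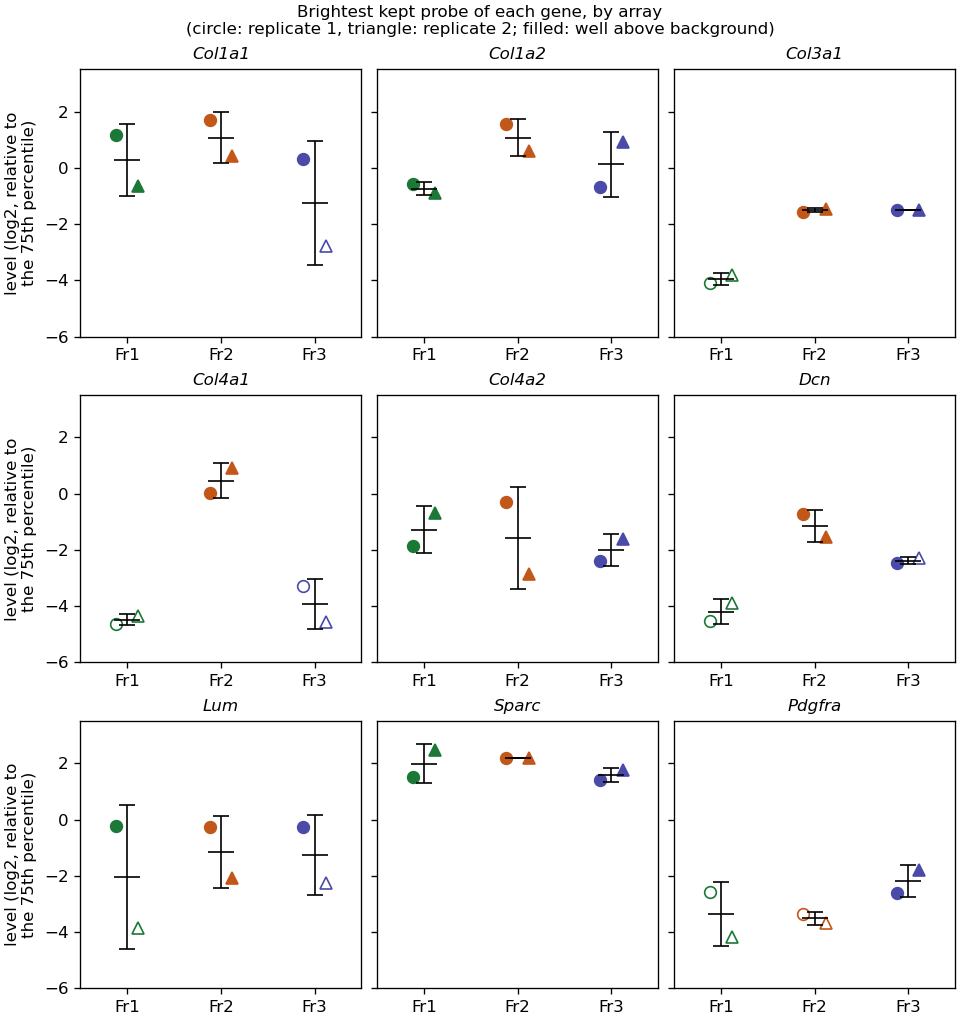
Levels of the 9 genes' brightest kept probes on each array (log2, 0 at the array's 75th percentile), with circles for replicate 1, triangles for replicate 2, filled symbols where the probe was well above background, and bars for the mean ± SD of 2 arrays. Col4a1 stands near 0 in Fr2 and is open in both other fractions; Col3a1 and Dcn are open in Fr1; Lum has its lower value in replicate 2 of each fraction.

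No member passed the test in any of the 3 comparisons at an adjusted p under 0.05 (limma, Benjamini-Hochberg over 20817 genes). Over all genes that rule called 0.0% between Fr1 and Fr2, 0.0048% (1 gene) between Fr1 and Fr3, and 0.0048% (1 gene) between Fr2 and Fr3. At an unadjusted p under 0.05, 4 members (Col1a2, Col3a1, Col4a1 and Dcn) differed between Fr1 and Fr2, against 9.79% of all genes, and all 4 were higher in Fr2. Between Fr1 and Fr3 there were 2 (Col3a1 and Dcn), both higher in Fr3, against 8.12% of all genes. Between Fr2 and Fr3 there was 1 (Col4a1, higher in Fr2), against 8.92%.

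The arrays of Fr1 and Fr2 did not overlap, with Fr2 higher, for those same 4 members, against 22.3% of all genes. With Fr1 higher this held for 0 members, against 22.5%. Among the 4, Col3a1, Col4a1 and Dcn were not above background in Fr1. Fr3 lay wholly above Fr1 for 2 members (Col3a1 and Dcn, both against background values in Fr1), against 21.9%, and Fr1 above Fr3 for 0, against 13.7%. Fr2 lay wholly above Fr3 for 4 (Col1a1, Col4a1, Dcn and Sparc), against 19.5%, and Fr3 above Fr2 for 1 (Pdgfra), against 22.7%. There Col4a1 was not above background in Fr3, nor was Pdgfra in Fr2. Of the 9 genes, 6 had their highest mean in Fr2 (Col1a1, Col1a2, Col4a1, Dcn, Lum and Sparc). The share of all genes with their highest mean in Fr2 was not computed, so this count has no measure beside it. Among the 6, only Col4a1 and Dcn had Fr2 arrays that did not overlap those of the next fraction. The median difference over the 9 members was 0.88 for Fr2 minus Fr1 (all genes −0.03), 0.78 for Fr3 minus Fr1 (all genes 0.05) and 0.59 for Fr2 minus Fr3 (all genes −0.08), all on the log2 scale. These medians include probes that were not above background in a fraction, and they rested on single arrays. Fr1 minus Fr2 had a median of −1.98 without Fr1 replicate 1, −1.79 without Fr2 replicate 2 and −0.20 without Fr2 replicate 1. Fr1 minus Fr3 had one of −0.37 without Fr1 replicate 2 and 0.075 without Fr3 replicate 1, and Fr2 minus Fr3 had one of 1.42 without Fr2 replicate 2.

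**Figure D2:**
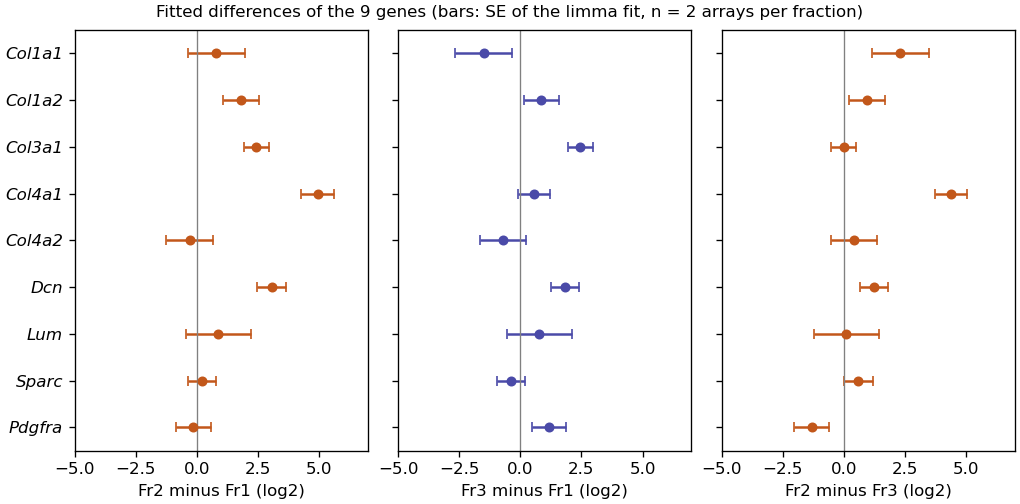
Fitted log2 differences of the 9 genes in the 3 comparisons (x axis: Fr2 minus Fr1, Fr3 minus Fr1, Fr2 minus Fr3), with bars for the SE of the limma fit. Col4a1 lies farthest from 0 in both comparisons with Fr2, at 4.94 and 4.38, and Col4a2 lies near 0 in all 3; points of genes below background in a fraction are fitted values, not bounds.

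Col4a1 encodes the α1 chain of type IV collagen, and its probe (mm9 chromosome 8, 11199009 to 11199068) was read in Fr2. Its levels were 0.02 and 0.91 on the Fr2 arrays, both well above background. They were −4.62 and −4.33 in Fr1 and −3.28 and −4.55 in Fr3, with the probe not above background on any of those 4 arrays. Fr2 stood apart from both other fractions, which overlapped each other.

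For such a probe the brighter fraction's mean is set against the lowest signal well above background on the dim arrays. Where the probe's own signal there is higher, that is used instead. The fold is then a lower bound for the processed intensity. Col4a1 was at least 6.60-fold higher in Fr2 than in Fr1 (adjusted p 0.193) and at least 8.29-fold higher than in Fr3 (adjusted p 0.125). Neither passed the test over all genes. The Col4a1 probe passed the filter on dim probes only through Fr2, so being high there was a condition of its being tested. The Fr2 versus Fr3 difference passed when probes with over 30% T were left out of the fit, with a fitted difference of 4.38 and an adjusted p of 0.0454, and without Fr3 replicate 1, with a difference of 5.01 and an adjusted p of 0.0222. Those fits called more genes in all: 56 of 13718 and 988 of 20817, against 1 of 20817. Over all the alternatives its adjusted p ran from 0.022 to 0.716. Both Fr2 arrays lay on 1 slide and the other 4 on another, so slide and fraction cannot be told apart for Col4a1 or for any other comparison with Fr2.

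Col4a2 encodes the α2 chain, which pairs with α1 in the type IV molecule. Its probe (chromosome 8, 11448840 to 11448899) was well above background on all 6 arrays, with levels of −1.87 and −0.67 in Fr1, −0.30 and −2.85 in Fr2, and −2.40 and −1.59 in Fr3. The 2 Fr2 arrays, 2.55 apart, enclosed all 4 other values between them, and no fraction stood apart. Fr2 minus Fr1 was −0.30 ± 0.95 (SE; adjusted p 0.946), and Fr2 minus Fr3 was 0.42 ± 0.95 (adjusted p 0.883). Fr1 minus Fr3 was 0.72 ± 0.95 (adjusted p 0.874).

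The 2 genes are transcribed away from each other from one region. Their promoter windows in the RefSeq table (GRCm38.p6), each from 250 bases before the start of transcription to a little after it, overlap by 78 bases: chr8:11312777-11313076 on the minus strand for Col4a1 and chr8:11312555-11312854 on the plus strand for Col4a2. Both windows hold the letters CCAAT on one strand or the other, as do 33.8% of the table's windows, and neither holds TATAAA, which 12.4% hold. So 2 genes with a shared start region had 1 probe read only in Fr2 and 1 probe read on every array. Whether their difference between Fr2 and the other fractions was unequal was not tested.

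Type I collagen was represented by 8 probes. The Col1a2 probe (chromosome 6, 4490619 to 4490678), part of which is shown above, was well above background on all 6 arrays. It stood at −0.56 and −0.91 in Fr1, 1.54 and 0.60 in Fr2, and −0.69 and 0.93 in Fr3. Both Fr2 arrays lay above both Fr1 arrays, and Fr3 spanned the range between.

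Fr2 was higher than Fr1 by 1.81 ± 0.73 for Col1a2 (adjusted p 0.50). Fr2 minus Fr3 was 0.95 ± 0.73 (adjusted p 0.653), and Fr1 minus Fr3 was −0.86 ± 0.73 (adjusted p 0.750). The other 3 Col1a2 probes, named by transcripts outside RefSeq, were not above background on any array.

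Col1a1, the partner chain, gave a less steady readout. Its brightest probe (chromosome 11, 94813075 to 94813134) was printed on 10 spots, and the mean of its spots was 1.17 and −0.63 in Fr1, 1.72 and 0.43 in Fr2, and 0.32 and −2.80 in Fr3. Replicate 1 was the higher one in each fraction, by 1.80, 1.28 and 3.12. Only the Fr3 replicate 2 value was not well above background. Fr2 lay above Fr3 with no overlap, and Fr1 overlapped both. Fr2 minus Fr3 was 2.31 ± 1.16 (adjusted p 0.599), Fr1 minus Fr3 was 1.51 ± 1.16 (adjusted p 0.716), and Fr1 minus Fr2 was −0.80 ± 1.16 (adjusted p 0.864).

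The 10 spots of this probe did not read alike on the arrays of Fr1 and Fr3. On the Fr2 arrays they lay within 0.226 and 0.279 of each other. On Fr1 replicate 1 the range was 1.83, and on Fr3 replicate 1 it was 1.65. On Fr1 replicate 2 the spots ran from −3.69 to 0.65 with 8 of the 10 well above background. On Fr3 replicate 2 they ran from −4.47 to 0.47 with 1 of the 10 well above background and 2 of them carrying an outlier flag.

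Other probes set this spread in proportion. There were 282 probes with at least 10 spots and a median level above −2, and their median SD over spots was between 0.071 and 0.090 on every array. The Col1a1 probe had the highest SD of them on Fr1 replicate 2 (1.52) and on Fr3 replicate 2 (1.27), and it was the only one with an SD over 1 on either array. It ranked 2 on Fr3 replicate 1 and 3 on Fr1 replicate 1, against 86 and 116 on the Fr2 arrays. Its sequence is 40% T. On the replicate 1 arrays of Fr1 and Fr3 the highest SD belonged to another of the 49 probes with over 30% T (0.983 and 0.951), while the 233 probes with less T reached at most 0.547 on any array. The part of T content or of the slide in this spread was not tested.

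A second Col1a1 probe for the same RefSeq transcript overlaps the first (chromosome 11, 94813115 to 94813174) and also has 10 spots, but is 13.3% T. The bases they have in common, shown because both probes read them, are:
Col1a1, shared by both probes: TGACCAACTGAACGTGACCA
This second probe stood at −4.53 and −4.22 in Fr1, −2.70 and −3.34 in Fr2, and −4.95 and −4.16 in Fr3. It was not well above background on any array and was not kept, though 5 of its 10 spots, with 1 of the 10 flagged, passed on Fr2 replicate 1. None of its spots was well above background on Fr1 replicate 1, where all 10 spots of the first probe were. The remaining 2 Col1a1 probes, named by other transcripts, were well above background on 1 array and on none.

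**Figure D3:**
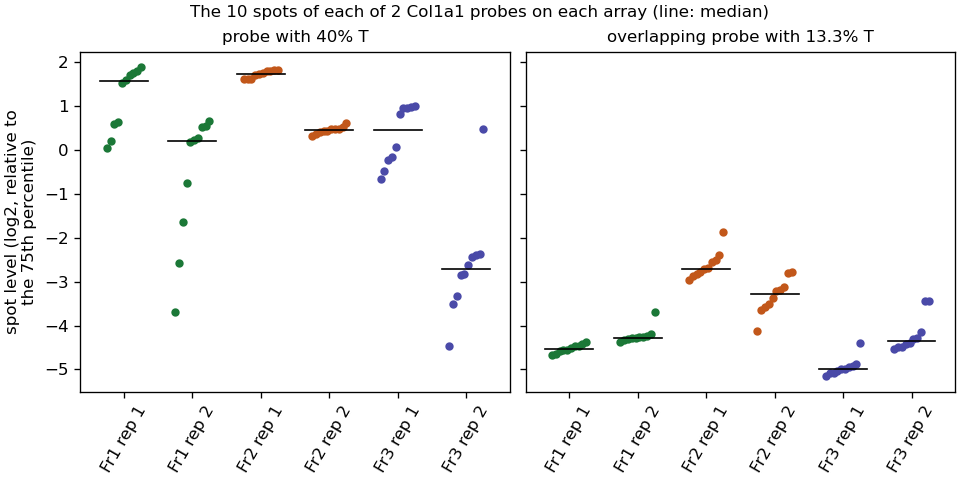
Levels of each of the 10 spots (log2, 0 at the array's 75th percentile, flagged spots included) of both overlapping Col1a1 probes on the 6 arrays, with a line at the median. The spots of the probe with 40% T lie close together on the Fr2 arrays and spread over 4.34 and 4.94 on replicate 2 of Fr1 and of Fr3; the other probe's spots stay low on every array.

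Col3a1, the chain of type III collagen, had close replicates. Its probe (chromosome 1, 45405589 to 45405648) stood at −4.09 and −3.81 in Fr1, −1.56 and −1.46 in Fr2, and −1.50 and −1.49 in Fr3. It was not above background in Fr1 and well above it on the other 4 arrays, which were within 0.09 of one another on the log2 scale. Fr1 lay apart from both.

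For Col3a1, Fr2 was at least 1.68-fold higher than Fr1 (adjusted p 0.322) and Fr3 at least 1.70-fold higher than Fr1 (adjusted p 0.266). Fr2 and Fr3 differed by −0.01 ± 0.52 (adjusted p 0.993). The Fr1 and Fr3 arrays shared a slide. The other 2 Col3a1 probes, outside RefSeq, were not above background on any array.

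Dcn encodes decorin, a proteoglycan that binds collagen fibrils. The probe (chromosome 10, 96980233 to 96980292), part of which is shown above, stood at −4.51 and −3.88 in Fr1, −0.73 and −1.55 in Fr2, and −2.47 and −2.29 in Fr3. It was above background on neither Fr1 array, on both Fr2 arrays and on 1 Fr3 array. The Dcn probe thus passed the filter on dim probes only through Fr2. Both Fr2 arrays lay above both Fr3 arrays. The measured values in Fr1 were the lowest, but they are only bounds there.

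Decorin was at least 2.18-fold higher in Fr2 than in Fr1 (adjusted p 0.292). Fr2 minus Fr3 was 1.24 ± 0.58 (adjusted p 0.597). For Fr3 against Fr1 no fold is given, since the Fr3 mean was under the bound that background set for Fr1 (adjusted p 0.465).

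Lum encodes lumican, the other fibril-binding proteoglycan among the members. Its probe (chromosome 10, 97035210 to 97035269, 43.3% T) stood at −0.23 and −3.85 in Fr1, −0.25 and −2.07 in Fr2, and −0.26 and −2.26 in Fr3. Replicate 1 was near −0.25 in all 3 fractions, and replicate 2 was lower each time, by 3.62, 1.82 and 2.00. The difference between replicates was larger than any between fractions, whose adjusted p-values were 0.872, 0.920 and 0.981. Lumican is next to decorin on chromosome 10 and belongs to the same family, and its Fr2 and Fr3 arrays overlapped where those of decorin did not.

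Sparc encodes the collagen-binding matricellular protein SPARC, and what was read depended on the probe. The brightest one (chromosome 11, 55222956 to 55223015), named by a transcript outside RefSeq, stood at 1.50 and 2.47 in Fr1, 2.20 and 2.18 in Fr2, and 1.42 and 1.78 in Fr3. It was well above background on every array, and its largest difference, Fr2 minus Fr3, was 0.59 ± 0.58 (adjusted p 0.721). Fr1 overlapped both other fractions.

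The 2 probes for the RefSeq transcript gave another picture. The first (chromosome 11, 55208939 to 55208998) stood at −3.67 and −3.61 in Fr1, 1.26 and −0.19 in Fr2, and −0.25 and −0.70 in Fr3. The second, whose sequence is shown above (chromosome 11, 55209449 to 55212106), stood at −4.44 and −2.80 in Fr1, −0.33 and −1.78 in Fr2, and −0.72 and −1.15 in Fr3. Both were well above background in Fr2 and Fr3 and not in Fr1.

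In a fit over all kept probes, the first RefSeq probe of Sparc was at least 6.94-fold higher in Fr2 than in Fr1 (adjusted p 0.227) and in Fr3 by at least 3.45-fold (adjusted p 0.234). For the second, the bounds were 2.31-fold in Fr2 (adjusted p 0.403) and 2.51-fold in Fr3 (adjusted p 0.387). Fr2 and Fr3 overlapped on the second probe and not on the first, where Fr2 was higher by 1.01 ± 0.67 (adjusted p 0.616). So the direction of Fr1 minus Fr3 turned with the probe: it was 0.39 with the brightest probe, −1.82 with the mean of the 3 probes and −3.17 with the brightest RefSeq probe, and passed the test with none.

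**Figure D4:**
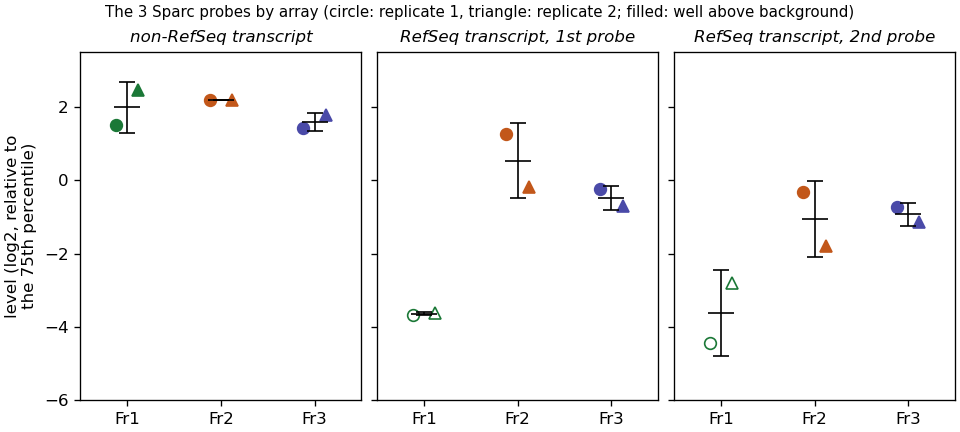
Levels of the 3 Sparc probes on each array (log2, 0 at the array's 75th percentile), with circles for replicate 1, triangles for replicate 2, filled symbols where the probe was well above background, and bars for the mean ± SD of 2 arrays. The probe outside RefSeq lies between 1.42 and 2.47 in all fractions; both RefSeq probes are open and lowest in Fr1.

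Pdgfra encodes the PDGF receptor α. The probe named by its RefSeq transcript (chromosome 5, 75593888 to 75593947) was not above background on any array, with levels from −5.12 to −4.11. The probe that was kept (chromosome 5, 75571099 to 75571158) is named by another transcript and stood at −2.56 and −4.17 in Fr1, −3.37 and −3.67 in Fr2, and −2.59 and −1.80 in Fr3. It was well above background in Fr3 only, where it was at least 1.05-fold higher than in Fr1 (adjusted p 0.639) and at least 1.68-fold higher than in Fr2 (adjusted p 0.608). The remaining probe, outside RefSeq, was at background throughout.

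The arrays themselves set the limits of these values. Between 44.6% and 52.4% of the spots for biological targets were well above background per array, and none was saturated. Pearson's r between the replicates, over 20817 genes that are not independent of each other, was 0.883 for Fr1, 0.898 for Fr2 and 0.796 for Fr3. The sort markers followed the gates in part. Mrc1 was not above background in Fr1, stood at 0.64 and 0.33 in Fr2 and at 3.78 and 2.67 in Fr3. Itgax stood at 2.71 and 2.35 in Fr1, 2.77 and 1.20 in the CD11c-negative Fr2, and 0.20 and 0.95 in Fr3. Adgre1 stood between 4.39 and 5.97 on all 6 arrays.

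Genes that mark the cells known to make this matrix were looked at beside the members. Of 16 fibroblast markers, 10 and 8 were well above background on the Fr1 arrays, 10 and 9 in Fr2, and 12 and 10 in Fr3. Their summed linear signal, relative to the 75th percentile, was 17.2 to 20.9 in Fr1, 18.3 to 18.8 in Fr2 and 13.8 to 14.2 in Fr3, with Cd34, which is not limited to fibroblasts, as the brightest. Dpt, Fap, Twist1 and Lox were above background on no array. None of the 11 markers tested passed in any comparison. At an unadjusted p under 0.05, 1 was higher in Fr2 than in Fr1 and 1 higher in Fr2 than in Fr3, and 1 was higher in Fr1 than in Fr3. Over all genes the shares at that threshold, in either direction, were 9.79% (Fr1 and Fr2), 8.92% (Fr2 and Fr3) and 8.12% (Fr1 and Fr3). The fibroblast sum was lowest in Fr3 and about level in Fr1 and Fr2. Cd34 was lower on both Fr3 arrays (−0.12 and 1.25) than on any other array (1.96 to 2.75). The low sum in Fr3 thus rests in part on Cd34, and the marker counts were not lowest there. Whether the members follow the fibroblast markers over the fractions was not tested.

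Lists of other cell types were read in the same way, and whether they follow the members was not tested. Of 14 epithelial markers, 10 and 10 were well above background in Fr2, 6 and 7 in Fr1 and 9 and 7 in Fr3, with Krt5 and Dsg3 above background on no array. The median difference of the 10 epithelial markers tested was 1.95 for Fr2 minus Fr1 and 1.25 for Fr2 minus Fr3. At an unadjusted p under 0.05, 5 were higher in Fr2 than in Fr1, against 9.79% of all genes in either direction, with none called. Their summed signal was 154 to 199 in Fr1, 184 to 195 in Fr2 and 158 to 236 in Fr3, but 91.2% of it was Trp63. Krt6a, a keratin of stratified epithelium, was above background only in Fr2, at −0.62 and −1.57, and its probe passed the filter on dim probes only through Fr2. Of 6 Schwann cell markers, 5 and 4 were well above background in Fr2, 1 and 2 in Fr1 and 3 and 1 in Fr3, with summed signals of 18.8 to 21.1, 6.55 to 10.2 and 10.1 to 11.9, of which Mbp alone made up 95.0%.

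Of 16 endothelial markers, 9 and 10 were well above background in Fr2 and 7 on each other array, with summed signals of 7.98 to 9.93 in Fr1, 7.13 to 7.47 in Fr2 and 6.65 to 9.53 in Fr3. Kdr, Tek, Tie1, Emcn and Sox18 were above background on no array. Of 11 markers of pericytes and smooth muscle, 6 or 7 were above background on each array, with Pdgfrb and Abcc9 on none, and the sum of 1223 to 2182 was 95.6% Mcam. Of 12 skeletal muscle markers, 4 and 4 were above background in Fr1, 6 and 8 in Fr2, and 8 and 7 in Fr3, with summed signals of 3.64 to 3.90, 2.95 to 3.03 and 4.42 to 7.17, and Ckm and Actn3 on none. Of the 8 muscle markers tested, 3 were higher in Fr3 than in Fr1 at an unadjusted p under 0.05, against 8.12% of all genes in either direction. All 3 fractions held markers of the labelled cells, with 10 to 12 of 12 macrophage markers and 6 to 8 of 8 dendritic cell markers well above background on each array. The macrophage list was not level: its summed signal was 118 to 123 in Fr1, 208 to 405 in Fr2 and 461 to 515 in Fr3. Of the 11 macrophage markers tested, 4 were higher in Fr2 and 5 in Fr3 than in Fr1 at an unadjusted p under 0.05, with median differences of 0.86 and 1.59 and none called. The shares over all genes, in either direction, were 9.79% and 8.12%. The part of any of these cell types in the members' levels was not tested.

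The other genes of the collagen pathway, 102 in 8 lists, included 68 that could be tested. None passed in any comparison at an adjusted p under 0.05. At an unadjusted p under 0.05, 8 were higher in Fr2 and 4 in Fr1 between those fractions. Between Fr1 and Fr3, 11 were higher in Fr3 and 3 in Fr1, and between Fr2 and Fr3, 5 were higher in Fr2 and 8 in Fr3. These are 17.6%, 20.6% and 19.1% of the 68, against 9.79%, 8.12% and 8.92% of all genes at the same threshold, the shares to read the counts of single lists against. Their median differences were −0.06 for Fr2 minus Fr1 and 0.12 for Fr3 minus Fr1, against −0.03 and 0.05 over all genes.

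Among the other fibrillar and associated collagens, 7 of 12 were tested. With an unadjusted p under 0.05, 0 differed between Fr1 and Fr2, 2 were higher in Fr3 than in Fr1 and 1 was higher in Fr3 than in Fr2. Col5a1, a type V chain that joins type I fibrils, stood at −3.10 and −4.10 in Fr1, −1.37 and −4.05 in Fr2 and −1.27 and −0.93 in Fr3. It was above background on both arrays only in Fr3, at least 2.24-fold higher than in Fr1 (adjusted p 0.564). Col6a2, a chain of the beaded type VI collagen, stood at 0.26 and 0.63 in Fr3 and below −0.50 on the other 4 arrays, with Fr3 minus Fr2 at 1.43 ± 0.57 (adjusted p 0.543).

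In the basement membrane list, 10 of 16 genes were tested. Of these, 1 was higher in Fr1 than in Fr2, 1 higher in Fr3 than in Fr1 and 1 higher in Fr3 than in Fr2 at that threshold. Nid2, which encodes nidogen 2, a linker of laminin and type IV collagen, stood at 0.73 and −1.48 in Fr3 and was not above background in the other fractions. Its bound was 3.69-fold over Fr1 (adjusted p 0.255) and 5.93-fold over Fr2 (adjusted p 0.215). The Nid2 probe passed the filter on dim probes only through Fr3, and that of Col4a1 only through Fr2. Whether the 2 genes differ over the fractions was not tested.

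Of the matricellular and elastic fibre genes, 12 of 16 were tested. There, 4 were higher in Fr2 than in Fr1 against 1 lower, 1 was higher in Fr3 than in Fr1, and 3 were higher in Fr2 than in Fr3, at an unadjusted p under 0.05. Sparcl1, a relative of Sparc, stood at 1.95 and 1.90 in Fr2, −2.03 and −4.28 in Fr1 and −2.50 and −2.01 in Fr3. It was well above background on only 1 of the Fr1 arrays, so the fitted 5.08 for Fr2 minus Fr1 (adjusted p 0.239) rests in part on a background value. Fr2 minus Fr3, where both fractions were read, was 4.18 (adjusted p 0.202). Eln, which encodes elastin, stood at −0.63 and −0.43 in Fr2 and was not above background in Fr1, where it was lower by at least 3.32-fold (adjusted p 0.332). Thbs1, a matricellular protein, stood at 1.05 and 2.48 in Fr2 and between −1.16 and −0.02 on the other 4 arrays.

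Of the small leucine-rich proteoglycans beside Dcn and Lum, 4 of 8 were tested, and 1 was higher in Fr1 in each comparison with it at an unadjusted p under 0.05. Kera, which encodes keratocan and lies on the same chromosome as Dcn and Lum, stood at 1.28 and −0.39 in Fr1, −2.19 and −1.80 in Fr2 and −0.90 and −2.97 in Fr3. Fr1 lay above Fr2 without overlap, with Fr2 minus Fr1 at −2.44 (adjusted p 0.468).

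Of the genes that process collagen chains, 13 of 19 were tested. At an unadjusted p under 0.05, 1 was higher in Fr2 than in Fr1, 2 were higher in Fr3 than in Fr1 and 2 higher in Fr3 than in Fr2. Crtap, a part of the prolyl 3-hydroxylation complex, was not above background in Fr1 and stood at 1.14 and −0.84 in Fr2 and 1.38 and 0.72 in Fr3. It was at least 5.18-fold higher in Fr2 (adjusted p 0.404) and at least 9.68-fold higher in Fr3 (adjusted p 0.308) than in Fr1. Plod1, a lysyl hydroxylase, stood at 2.30 and 2.41 in Fr3 and between −0.85 and 0.53 elsewhere.

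PDGF ligands and receptors other than Pdgfra gave 4 of 6 genes tested, of which 1 was higher in Fr3 than in each other fraction at an unadjusted p under 0.05. That gene, Pdgfc, encodes a ligand of PDGFRα and stood at −0.54 and 0.88 in Fr3. It was not above background in Fr1 or Fr2, with bounds of 5.40-fold against Fr1 (adjusted p 0.144) and 8.67-fold against Fr2 (adjusted p 0.0928). The kept Pdgfra probe was above background in that fraction alone as well, but both probes passed the filter on dim probes only through it. The probe for the RefSeq transcript of Pdgfra was not above background there, at −5.12 and −4.51. Whether the 2 genes vary together was not tested.

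Receptors and enzymes that take up or break down collagen completed the lists. Of 12 receptor genes 8 were tested, with 1 higher and 1 lower in Fr2 than in Fr1, 1 higher and 2 lower in Fr3 than in Fr1, and 2 higher in Fr3 than in Fr2 at an unadjusted p under 0.05. The list includes Mrc1, the sort marker, whose level in Fr3 exceeded that in Fr1 by at least 44.9-fold (adjusted p 0.0851) and which is no independent reading. Of 13 genes of collagen breakdown 10 were tested, with 2 higher in Fr2 and 3 higher in Fr3 than in Fr1, and 2 higher in Fr2 and 1 in Fr3 between those. Timp3, an inhibitor of metalloproteinases, stood at 3.09 and 3.47 in Fr2, −1.12 and 0.10 in Fr1 and 1.65 and 0.85 in Fr3, and no fraction overlapped another. Ctsk, a collagen-cleaving cathepsin, was above background in Fr2 only, at −1.89 and −1.85.

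The mean profile of the 9 members, each centred on its own mean, was −0.47 and −0.91 in Fr1, 1.20 and 0.45 in Fr2, and 0.01 and −0.28 in Fr3. The 8 named genes nearest to it over the 6 arrays were Csnk2a1, Tsr3, Ubash3b, Rc3h1, Tmem164, Calm3, Tmem192 and Atad2, with root-mean-square differences of 0.05 to 0.18 on the log2 scale. The members themselves were 0.57 (Col1a2) to 1.72 (Col4a1) from their own mean. The nearest gene, Csnk2a1, had mean levels of 2.42 ± 0.32 in Fr1, 3.97 ± 0.53 in Fr2 and 2.90 ± 0.24 in Fr3 (SD, n = 2 arrays). The 8 were picked from all genes for this likeness, which is a description.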

How the data were processed

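Spot intensity values on 6 one-colour arrays with 60-base probes come, per the file headers, from Feature Extraction 11.5.1.1 as run by the authors, on probe coordinates of mm9. The deposited value table holds log2 values centred at the 75th percentile (column medians −2.43 to −2.25, r of at least 0.9999 with the scanner values) and served as an alternative. From the scanner files, log2 processed intensity minus the array's 75th percentile was taken, outlier-flagged spots were left out, and the remaining spots of a probe were averaged. A probe counted as well above background on an array if at least as many of its unflagged spots passed as failed. It was kept when this held for the 2 arrays of some fraction (27867 probes), and a gene was read by its brightest kept probe. Names were updated through the RefSeq table: 32994 probes by accession, 10224 by symbol and 520 by synonym, while 12867 kept the file's name. Promoter windows, found for 6 of the 9 members, and probe letters come from RefSeq and from the files.

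The comparisons used R 4.3.3 and limma 3.58.1 (Python 3.11.15 for reading), fitting 3 fraction means to the 6 arrays, with moderated variances; p-values were adjusted by Benjamini and Hochberg. The test was checked on simulated data. All p-values are two-sided, and a call is an adjusted p under 0.05. An exact permutation test of 2 against 2 arrays cannot go below p = 0.333 and was not used. P-values rest on the spread between the 2 sorts of a fraction, pooled over the 3 fractions and moderated by the spread of all genes. With 2 arrays a fraction, precision is limited. The members and gene lists were chosen with earlier results of these data known. Besides the members, the genes named were the sort markers, genes of each list with the smallest F-test p, and the nearest profiles; the list members above background on no array and the brightest of a list were named after their values were seen. Replicate numbers were not taken to pair the arrays, and 17 alternatives were run.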

Additional observations from a re-analysis of the deposited data

How the results depend on the processing

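With normexp background correction, differences shrank. Fr1 minus Fr2 was −0.87 for Col4a1, −0.16 for Col3a1 and −0.24 for Dcn on the log2 scale. These are smaller than the fold bounds given above, which hold for the processed intensity only. No member was called with normexp. Members were called otherwise only for Col4a1 between Fr2 and Fr3: 1 with probes over 30% T left out, and 0 to 1 over the fits that leave out 1 array (1 without Fr3 replicate 1). In those fits the lone array of a fraction is assumed to vary like the others. The members' median for Fr1 minus Fr2 was −2.12 both with probes over 30% T left out (6 members) and with the brightest RefSeq-named probe (8 members, an alternative chosen after seeing the data), and −1.98 to −0.20 with 1 array left out. For Fr1 minus Fr3 it was 0.39 with probes above background on all arrays (3 members), 0.0070 with normexp, and −1.03 to 0.075 with 1 array left out. For Fr2 minus Fr3 it was 0.41 to 1.42 with 1 array left out.

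Some differences that had not passed turned their sign. Under normexp these were Col4a1 (0.083) and Pdgfra (0.0070) for Fr1 minus Fr3, and Col3a1 (0.0058) and Lum (−0.021) for Fr2 minus Fr3. Under quantile normalization they were Pdgfra for Fr1 minus Fr2 (−0.12) and Col3a1 for Fr2 minus Fr3 (0.018). Sparc for Fr1 minus Fr3 was −1.82 with the mean of its kept probes and −3.17 with the RefSeq-named probe. Over the fits without 1 array, Fr1 minus Fr2 ran from −1.70 to 0.10 for Col1a1, −0.98 to 1.57 for Col4a2, −2.69 to 0.93 for Lum, −0.69 to 0.28 for Sparc and −0.65 to 0.96 for Pdgfra. Fr1 minus Fr3 ran from −0.050 to 3.07 for Col1a1, −1.19 to 0.075 for Col4a1, −2.59 to 1.03 for Lum and −0.093 to 0.88 for Sparc. Fr2 minus Fr3 ran from −0.060 to 0.032 for Col3a1, −0.85 to 1.70 for Col4a2 and −0.90 to 1.11 for Lum. The cause was not tested.

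With the replicate block, 0 members were called in each comparison and the adjusted p of Col4a1 was 0.252 for Fr2 minus Fr3. Deviations of same-numbered arrays correlated at 0.118 for Fr1 and Fr2, 0.433 for Fr1 and Fr3 and 0.0458 for Fr2 and Fr3, which is not over 0.1 for every pair, so the numbers were not taken to pair the arrays. With the 4 arrays of Fr1 and Fr3, all on 1 slide, fitted alone, 0 members were called. Counts over all genes were less stable. Between Fr1 and Fr2, 0 became 3 with probes over 30% T left out and 13 without either Fr3 array. Between Fr1 and Fr3, 1 became 3 (normexp), 12 (T), 7 (RefSeq-named probe), 0 (no filter, block, or 4 arrays alone) and 0 to 1476 without 1 array, the highest without Fr3 replicate 1. Between Fr2 and Fr3, 1 became 13 (normexp), 9 (above background on all arrays), 56 (T), 3 (RefSeq-named probe), 0 (block) and 0 to 988, the highest again without Fr3 replicate 1. Signal over background limits Col3a1, Col4a1, Dcn and the RefSeq probes of Sparc to bounds in Fr1.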
